A study of Mus musculus with 4 samples.

Results

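MHC class II molecules are the surface proteins with which B cells, dendritic cells and macrophages show peptides to CD4 T cells. The genes described here are the class II genes of the mouse and Ciita, the coactivator that switches them on. They were taken as a named list of 10 genes: Ciita, Cd74, H2-Aa, H2-Ab1, H2-Eb1, H2-Eb2, H2-DMa, H2-DMb1, H2-DMb2 and H2-Oa. All 10 had at least 1 peak of open chromatin, out of 17173 protein-coding genes that did. A peak belonged to a gene when it lay on the gene body or within 2000 bases upstream of it (mm10), which gave 54 distinct peaks for the 10 genes. The values are chromatin accessibility, not RNA or protein.

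The study profiled nuclei of inguinal white adipose tissue (iWAT) from male C57BL/6 mice, 8 weeks old, by single-nucleus ATAC-seq, an assay in which a transposase cuts DNA where chromatin is open. There were 7 groups of 3 mice. Mice at day 0 stayed at room temperature (22 °C, day0RT). The others were kept in the cold (6.5 °C by the labels) for 1, 3 or 7 days (day1C, day3C, day7C), or received a selective agonist of the β3-adrenergic receptor, CL-316,243 (CL), at 1 mg/kg for 1, 3 or 7 days (day1CL, day3CL, day7CL). Day 0 is thus the only reference for both treatments, and each group is 3 animals of 1 sex and strain. The authors sorted the 32552 nuclei into 12 annotated clusters, and all nuclei of 1 cluster from 1 mouse were summed here into 1 library if there were at least 10 of them. Levels are given as CPM, the number of entries in a gene's peaks for every 1000000 entries of the library, where an entry is 1 peak seen open in 1 nucleus. They are not divided by length, and a gene with more peaks can have a higher value, so levels are compared between clusters and groups and not between genes.

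The library sizes set how firmly each cell type can be read. B cells were the largest cluster, with 11967 nuclei and 66 to 860 per mouse, and macrophages had 1229 nuclei, 24 to 168 per mouse. Dendritic cells had 677 nuclei in all and reached 10 nuclei in 17 mice only, 1 of them a day3CL mouse. In 3 mice (day1CL replicate 3, day3CL replicate 2 and day3C replicate 1) T cells made up 1.69% to 5.94% of nuclei, against 24.3% to 44.3% in the other 18. The mouse with 66 B nuclei is 1 of these 3. Of the barcode sequences, 4218 were carried by more than 1 nucleus, in 18 pairs of mice, all of them with the same treatment and replicate number but different days.

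Ciita does not bind DNA itself. It is recruited to the promoters of class II genes by RFX, CREB and NF-Y, which sit on short elements called the X and Y boxes, and in its absence class II genes are largely silent. Its own transcription starts at separate promoters, the most upstream of which is known from dendritic cells and other myeloid cells, while B cells use one further downstream and a further one answers to interferon-γ. Among the other members, H2-Aa and H2-Ab1 encode the chains of the I-A molecule, H2-Eb1 and H2-Eb2 encode beta chains of the I-E family, Cd74 is the invariant chain that guards the peptide groove, H2-DMa, H2-DMb1 and H2-DMb2 encode the H2-DM molecule that exchanges peptides, and H2-Oa is a chain of H2-O, which restrains H2-DM.

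Promoter sequence was read for the members that have an entry in the RefSeq promoter table used (GRCm38.p6), 7 of the 10. The letters GATTGG, the core of the Y box bound by NF-Y, were searched on both strands in the 250 bases before each start, together with AACNGATG, an X box core, and its shorter form GCAAC. The patterns were chosen with these promoters in view. The stretches shown are the promoters in which the boxes lie outside the annotated exons of the gene, up to the base before the start they belong to (for H2-DMb2 a start inside the gene, downstream of another annotated one). They are printed because they hold letters that match the elements through which Ciita is recruited. Capitals mark the X box core (AACNGATG, or GCAAC in H2-Aa) and the Y box core. They are H2-Aa at chr17:34287824-34287973 (minus strand), H2-Eb1 at chr17:34305717-34305866, H2-Eb2 at chr17:34325525-34325664 and H2-DMb2 at chr17:34145099-34145235 (plus strand), each written 5′ to 3′ on the strand of the gene:
H2-Aa: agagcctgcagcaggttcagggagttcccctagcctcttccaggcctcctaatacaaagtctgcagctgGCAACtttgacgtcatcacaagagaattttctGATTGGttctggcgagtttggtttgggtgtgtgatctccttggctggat
H2-Eb1: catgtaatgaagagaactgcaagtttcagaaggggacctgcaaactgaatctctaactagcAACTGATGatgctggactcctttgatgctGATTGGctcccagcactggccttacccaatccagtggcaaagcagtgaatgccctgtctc
H2-Eb2: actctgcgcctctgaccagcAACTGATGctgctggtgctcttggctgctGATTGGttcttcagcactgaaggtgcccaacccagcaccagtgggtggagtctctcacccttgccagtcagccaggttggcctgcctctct
H2-DMb2: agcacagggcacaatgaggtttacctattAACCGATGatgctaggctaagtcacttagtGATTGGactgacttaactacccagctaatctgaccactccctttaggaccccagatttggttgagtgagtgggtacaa

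The Y box core was found for all 7 members with an entry, and on its own it is common: 14.6% of the 32851 promoter entries hold it on either strand. AACNGATG was rarer (1.98% of entries) and GCAAC more frequent (29.9%). An AACNGATG that began 25 to 35 bases before a GATTGG on the gene's strand occurred in 5 entries of the whole table (0.0152%), those of H2-Eb1, H2-Eb2, H2-DMb1, H2-DMb2 and BC051142. Because the patterns were chosen with these promoters in view, this share does not measure how particular the pair is to the members. The spacing was 29 bases in H2-Eb1 and H2-Eb2 and 30 bases in H2-DMb1 and H2-DMb2. H2-Aa and H2-Oa held GCAAC followed by GATTGG, whose first base lay at -49 and -44 from the start. H2-DMa has 2 entries, and GATTGG stood in 1 of them, at -199. These matches are letters in a window, and no binding was measured. The starts of all 4 promoters shown lay inside a deposited peak, so the levels below include the boxes.

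Across the 12 clusters, mean CPM was highest in B cells for 9 of the 10 members, the exception being H2-DMa. Macrophages or dendritic cells came second for all of these but H2-Oa, and the lowest means lay in the adipocyte clusters or in the cluster labelled VSMC. Ciita reached 478 ± 34.9 CPM in B cells (SD, n = 21 mice), 176 ± 61.7 in macrophages (n = 21), 131 ± 57.2 in dendritic cells (n = 17) and 20.9 ± 8.87 in white adipocytes (n = 21). B cells ran from 420.0 to 549.9 CPM with a median of 474, macrophages from 81.5 to 288 with a median of 169.6, and dendritic cells from 40.7 to 266 with a median of 119. The B cell range thus lay above every macrophage and dendritic library, whereas the macrophage and dendritic ranges overlapped. Of the 16 Ciita peaks, 7 also lie on the neighbouring gene Dexi, among them the 2 tallest in B cells. Those 2 had 139 and 65.9 CPM in B cells, 19.0 and 7.60 in macrophages and 22.9 and 2.88 in dendritic cells. The B cell excess of the Ciita sum, here and in the tests below, thus includes peaks shared with Dexi.

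**Figure D1:**
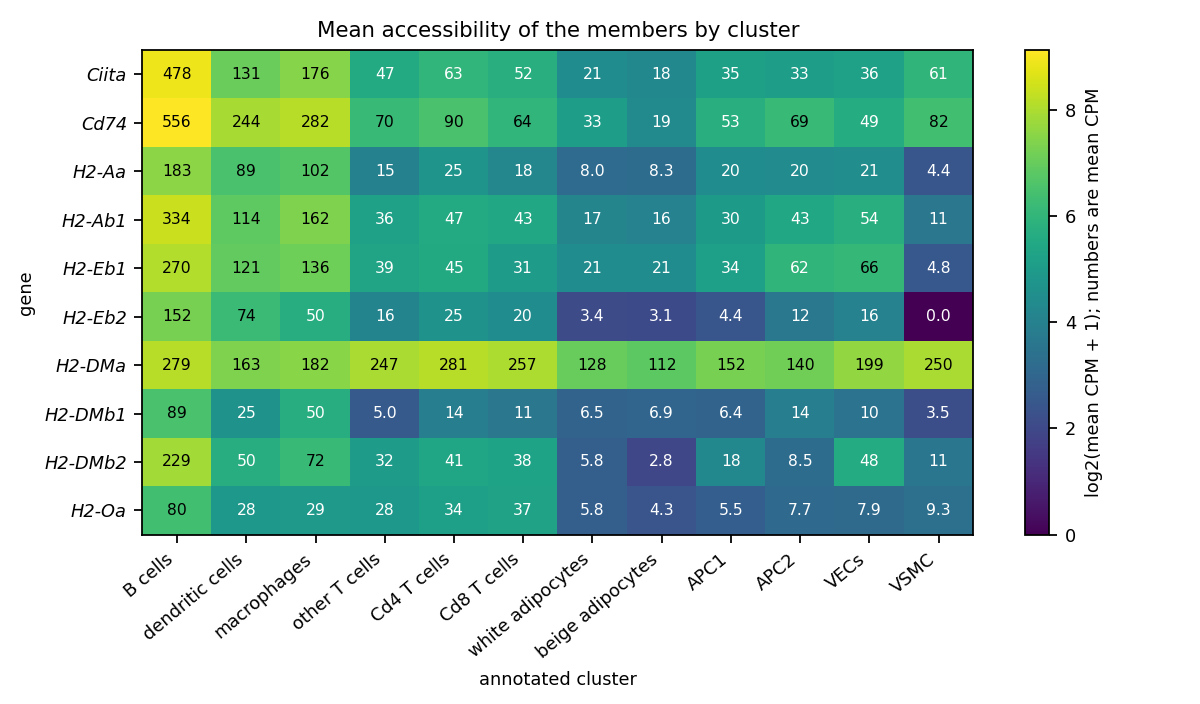
Mean CPM of each of the 10 genes (vertical axis) in each of the 12 annotated clusters (horizontal axis), averaged over mice with at least 10 nuclei and coloured by log2(mean CPM + 1), with the mean CPM printed in each cell. The B cell column is the highest for 9 genes, macrophages and dendritic cells come next for most, and H2-DMa is open in every cluster.

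Cd74, the invariant chain, followed the same order, with 556 ± 44.6 CPM in B cells, 282 ± 65.1 in macrophages, 244 ± 101 in dendritic cells and 33.0 ± 11.2 in white adipocytes. Its B cell libraries, from 487 to 633 CPM, did not overlap those of macrophages, from 122 to 393, but 1 dendritic library reached 583. Both Ciita and Cd74 were higher in B cells than in macrophages within the same mouse in 21 of 21 mice. Over the 12 cluster means, Cd74 was also the gene whose log2 level was most like that of Ciita among 14575 genes (Pearson r = 0.980, a description over clusters that share mice and depth). H2-DMb2 (r = 0.872) and H2-Ab1 (r = 0.867) followed among the members, and H2-DMa was least like it (r = 0.562). Outside the list, the genes nearest to Ciita were Maea (r = 0.946), Rab39 (0.945) and Sh3bp2 (0.941), and Ms4a1, which encodes the B cell protein CD20, ranked among the first 10 (0.937).

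The classical chains were also highest in B cells. H2-Aa stood at 183 ± 40.3 CPM in B cells, 102 ± 45.7 in macrophages and 88.9 ± 50.0 in dendritic cells. H2-Ab1 stood at 334 ± 43.0, 162 ± 60.1 and 114 ± 39.1, and H2-Eb1 at 270.1 ± 29.3, 136 ± 74.2 and 121 ± 44.5 in the same order. B cells exceeded macrophages in 20 of 21 mice for H2-Aa and H2-Eb1 and in 21 of 21 for H2-Ab1. H2-Eb2 was the member for which dendritic cells came second, at 73.5 ± 38.6 CPM against 152 ± 20.7 in B cells and 50.3 ± 29.3 in macrophages. That order of the myeloid clusters held in 11 of 17 mice.

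The genes of peptide exchange diverged from one another. H2-DMb2 reached 229 ± 26.7 CPM in B cells but 71.7 ± 36.9 in macrophages and 50.5 ± 29.2 in dendritic cells, and H2-DMb1 reached 89.2 ± 12.9, 50.2 ± 29.1 and 24.6 ± 23.4. H2-DMa, their partner chain, was no B cell gene by this measure: Cd4 T cells had 281 ± 42.8 CPM, B cells 279 ± 38.9, and white adipocytes still 128 ± 21.9. Of its 7 peaks, 3 also lie on Brd2, a broadly expressed neighbour. With only the peaks that belong to 1 gene, all 10 members were highest in B cells, and with promoter peaks alone (no further than 2000 bases from the start) 8 were, without H2-DMa (highest in the cluster labelled VSMC) and Ciita (15.9 CPM in macrophages and 1.25 in B cells, from the peak at its first start). For H2-DMa these promoter peaks are 2 that also lie on Brd2 and hold no annotated H2-DMa start. The 2 peaks at its protein-coding starts, the first of them also on Brd2, had 83.8 and 91.4 CPM in B cells. In the cluster labelled VSMC they had 51.0 and 15.5, and in Cd4 T cells 99.6 and 58.8. H2-Oa, the H2-O chain, reached 80.2 ± 12.5 CPM in B cells, and its next levels were in T cells (36.8 ± 13.6 in the Cd8 cluster and 34.3 ± 13.5 in the Cd4 cluster), above macrophages (29.3 ± 17.1) and dendritic cells (28.0 ± 21.1). These last 4 ranges overlapped.

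**Figure D2:**
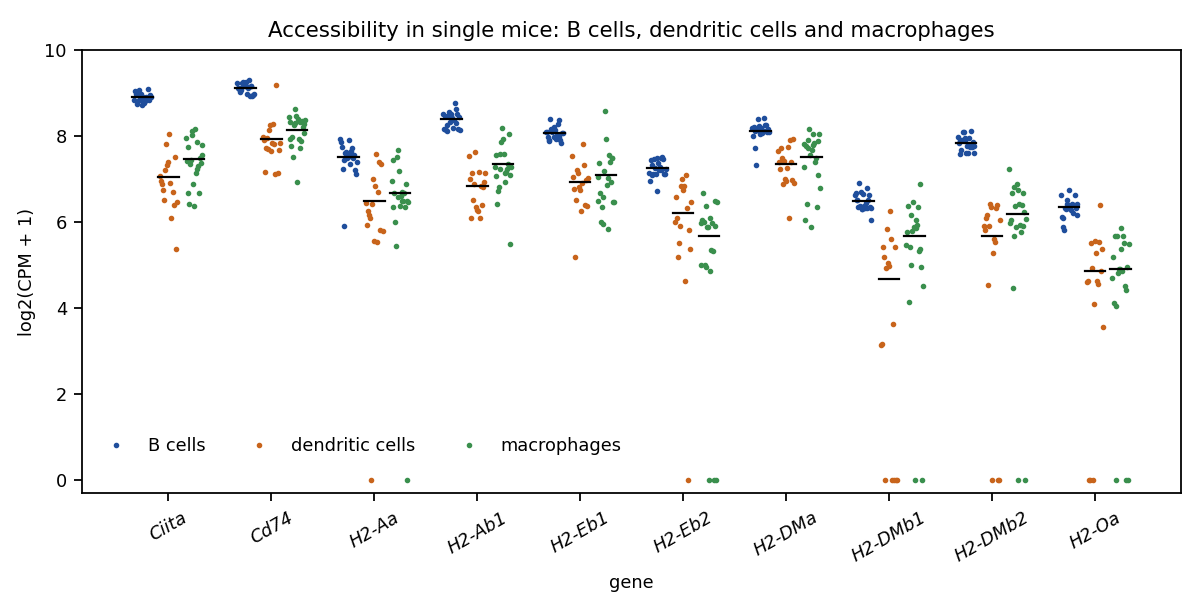
CPM of the 10 genes on a log2(CPM + 1) axis in B cells, dendritic cells and macrophages, with 1 point per mouse and a bar at the mean CPM on the same axis. The B cell points of Ciita and H2-DMb2 stand clear of all other points, those of H2-DMa overlap with the other clusters, and points at 0 are libraries with no entry.

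The non-immune clusters held low values. For the 9 members other than H2-DMa, the summed CPM was 5.11% of the B cell sum in white adipocytes and 4.18% in beige adipocytes. It was 8.76% in APC1 and 11.3% in APC2 (2 clusters that the authors annotated as adipocyte progenitors), and 13.0% in vascular endothelial cells (VECs). The 8 B cell marker genes, summed the same way, stood at 7.44%, 7.31%, 10.5%, 11.4% and 8.56% of their B cell sum in these clusters. In T cells the members stood at 12.1% to 16.2% and the B markers at 12.3% to 13.5%. As sums, the member share was below the B marker share in both adipocyte clusters and APC1, close to it in APC2 and above it in VECs. In Cd4 T cells it was above it (16.2% against 12.3%), and in the other T cell clusters it was not (12.1% and 13.2%, each against 13.5%). What these low values come from was not tested. Single genes of both lists spread more widely. H2-Oa stood at 34.9% to 45.9% of its B cell level in the 3 T cell clusters, and H2-Eb1 at 62.1 ± 30.6 CPM in APC2 (23.0% of B cells, n = 19) and 65.6 ± 65.7 in VECs (24.3%, n = 15). Among the B markers, Ms4a1 had 3.74 CPM in APC2 and 3.62 in VECs, against 116 in B cells, whereas Blk had 58.2 and 58.7, against 180.0 in B cells. Pax5 had 74.2 and 40.4, against 631 in B cells. Blk and Pax5 thus held most of the B marker sum in APC2 (177 CPM) and VECs (133 CPM). They did so in APC1 as well (71.0 and 41.8 of 163 CPM), in white adipocytes (14.1 and 61.1 of 116) and in beige adipocytes (16.3 and 62.6 of 114). The B marker shares given above for these clusters rest largely on these genes. Where the member shares stand against the remaining B markers was not computed. APC2 exceeded white adipocytes for H2-Eb1 in 18 of 19 mice. Markers in APC2 were mixed: Pdgfra (59.0 CPM) and Pdgfrb (146) of stroma stood beside Acta2 (82.9) and Myh11 (173) of smooth muscle. Of the lymph node stroma genes, Cxcl13, Ccl21a and Madcam1 had 17.0, 10.4 and 6.48 CPM in APC2, against 1.69, 0 and 1.37 in APC1. The others, Lyve1 and Prox1 (7.33 and 7.66), were higher in VECs (14.2 and 26.6). The macrophage markers summed to 36.3% of the macrophage level in APC2 and 55.6% in VECs. Of the VEC sum of 317 CPM, Mertk alone had 216, above its 175 in macrophages. In APC2, Mertk had 81.5, Csf1r 51.1 and Cd14 41.7 CPM (in macrophages 175, 165 and 20.1). C1qa (1.80 in APC2 and 0 in VECs), Fcgr1 (0 and 4.79), Adgre1 (1.32 and 3.54) and Cd68 (4.00 and 2.94) were low in both. The part of macrophages or of lymph node stroma in the H2-Eb1 values was not tested.

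In the cluster the authors labelled VSMC, the skeletal muscle genes Myod1 and Acta1 stood at 71.4 and 86.2 CPM and the smooth muscle genes Acta2 and Myh11 at 6.65 and 65.3, with Myog, a further skeletal muscle gene, at 12.4 and Cnn1, of smooth muscle, at 3.24. Ciita there spread from 0 to 381 CPM over 10 mice (60.9 ± 116), and H2-Eb2 had no entry in any of the 10 libraries, which allows a level of up to 4.38 CPM at the 3 counts that a total of 0 allows (counting error only). The dendritic and macrophage labels were also checked. The dendritic cluster had the higher levels of Flt3 (398 against 194 CPM), Zbtb46 (134 against 91.0) and Batf3 (83.2 against 24.6), and the macrophage cluster those of Csf1r (165 against 64.9) and Mertk (175 against 47.0). Some markers went against the names: Siglech and Clec9a, found in dendritic subsets, were higher in the macrophage cluster (43.9 against 10.6 and 61.7 against 30.6 CPM), and Adgre1, which encodes F4/80, was higher in the dendritic cluster (48.1 against 29.4). How far either cluster mixes these kinds of cell was not tested.

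To set B cells, dendritic cells and macrophages against one another within the same animals, the libraries of the 3 clusters were fitted together with the mouse as a block, by edgeR's quasi-likelihood test over 3399 genes. The authors drew the clusters from these same counts, so the p-values are not independent of how the clusters were made. The 8 members that passed the filter on low counts (all but H2-DMb1 and H2-Oa) were all higher in B cells than in macrophages, where 35.0% of all tested genes were called higher and 33.8% lower. All 8 were also higher in B cells than in dendritic cells, where 36.8% of genes were called higher and 32.3% lower. A gene can pass the filter through its B cell libraries alone. H2-DMb1, at 89.2 CPM in B cells, did not pass. H2-DMb2 (71.7 CPM in macrophages and 50.5 in dendritic cells) and H2-Eb2 (50.3 and 73.5) had lower means than that in the myeloid clusters. Their entry thus rested mainly on B cells, and their direction in these comparisons was in part set by the filter. With H2-DMb2 and H2-Eb2 set aside, the log2 difference from macrophages ran from 0.49 ± 0.09 (SE) for H2-DMa to 1.21 ± 0.08 for Ciita (adjusted p = 1.2e-35). The difference from dendritic cells ran from 0.59 ± 0.11 for H2-DMa to 1.72 ± 0.10 for Ciita (adjusted p = 4.5e-40). H2-DMb2 stood at 1.34 ± 0.11 and 1.89 ± 0.14, and H2-Eb2 at 1.34 ± 0.13 and 0.73 ± 0.14. The median of the 8 was 0.92 against macrophages and 1.14 against dendritic cells, beside 0.04 and 0.06 over all genes tested. These medians include H2-DMb2 and H2-Eb2, so the filter enters them too. DESeq2's scaling moved these 2 medians over all genes up by 0.12 and 0.15, and no member changed direction.

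Between dendritic cells and macrophages the members did not move as one block. In the same edgeR fit, 5 of the 8 differed, 1 higher and 4 lower in dendritic cells, where 18.0% of all tested genes were called higher and 21.2% lower. Ciita was lower in dendritic cells by a log2 difference of -0.51 ± 0.14 (adjusted p = 0.00129), H2-DMb2 by -0.55 ± 0.20 (adjusted p = 0.0206), H2-Aa by -0.48 ± 0.17 (adjusted p = 0.0172) and Cd74 by -0.33 ± 0.11 (adjusted p = 0.0104). H2-Eb2 was higher, by 0.61 ± 0.20 (adjusted p = 0.00778). H2-Ab1 (-0.31 ± 0.14, adjusted p = 0.0780), H2-DMa (-0.11 ± 0.14) and H2-Eb1 (0.10 ± 0.15) did not pass. The H2-Eb1 interval, from -0.19 to 0.40, leaves room for a difference of either sign. The median of the 8 was -0.32, beside -0.04 over all genes. The calls of Cd74, H2-Aa, H2-Eb2 and H2-DMb2 were each lost under at least 1 other setting, whereas that of Ciita was kept under every alternative in which it was tested. In particular, the Cd74 call was lost without day7CL replicate 2 (-0.26), that of H2-Aa without any 1 of the day0RT mice or day1C replicate 1 (-0.44 to -0.38), and that of H2-DMb2 without day0RT replicate 1, day7C replicate 1 or day3CL replicate 3 (-0.46 to -0.43).

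Other genes of the pathway were read from the same 3-cluster edgeR fit. Of 40 listed genes (DNA-binding partners and regulators of Ciita, class II processing genes and class I genes), 26 were tested. Between dendritic cells and macrophages, 7 were higher and 4 lower in dendritic cells, beside 18.0% and 21.2% of all genes. Nlrc5, the class I counterpart of Ciita, was higher (0.88 ± 0.14), as was Jak2, a kinase of interferon-γ signalling (0.85 ± 0.13). Irf8, a myeloid regulator, was lower (-1.14 ± 0.15), with Ctsb, a lysosomal protease (-0.94 ± 0.15), and H2-Ob, the partner chain of H2-Oa (-0.63 ± 0.20). B cells had 13 of the 26 higher and 5 lower than macrophages (beside 35.0% and 33.8%), with Pax5, the B lineage factor, at the head (2.76 ± 0.09), and 8 higher and 6 lower than dendritic cells (beside 36.8% and 32.3%). H2-Ob was higher in B cells than in either, by 1.25 ± 0.11 and 1.89 ± 0.14. In CPM, H2-Ob had 226 in B cells, 80.6 in macrophages and 57.0 in dendritic cells, and Pax5 had 631, 83.1 and 99.6. Both can have passed the filter on low counts through their B cell libraries alone. Their direction in the comparisons with B cells may thus be in part set by the filter. The H2-Ob call between dendritic cells and macrophages was lost without day0RT replicate 1 (-0.49).

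**Figure D3:**
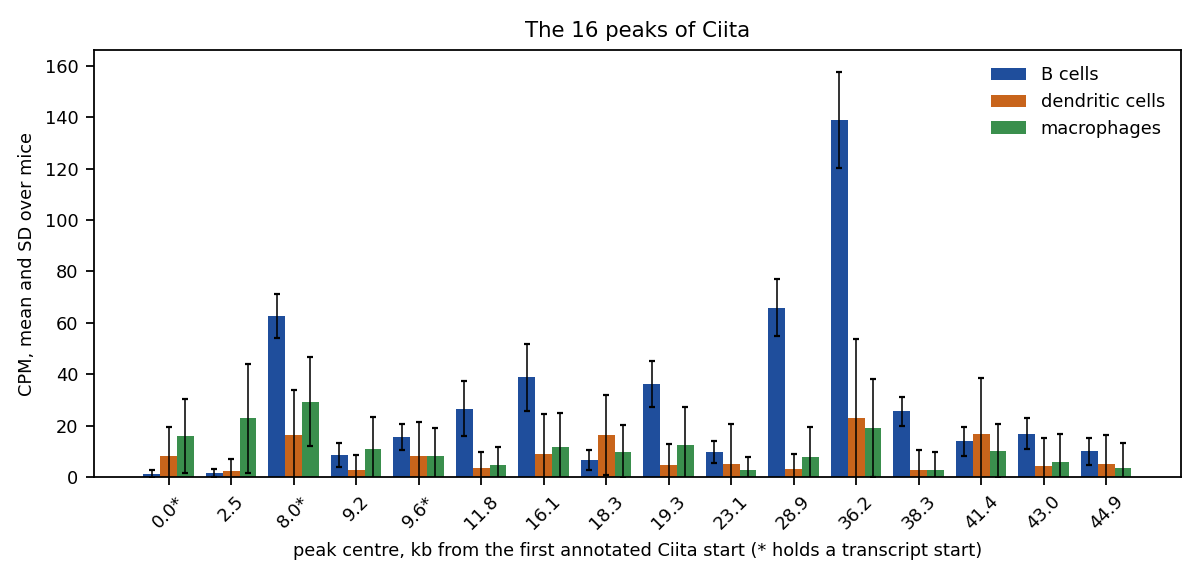
Mean CPM in B cells, macrophages and dendritic cells at each of the 16 Ciita peaks, ordered by the distance of the peak centre from the gene start in kb, with an asterisk on the peaks that hold an annotated transcript start and lines for the SD over mice, cut at 0. B cells lead at the second start and at the tallest peaks in the 3′ part of the gene, and macrophages at the first start and the intronic peak next to it.

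Split into single peaks, Ciita showed different parts of the gene open in different clusters. It spans chr16:10480059-10528418 on the plus strand and holds 16 peaks, and 3 of these cover annotated transcript starts. The peak at the first start (chr16:10479896-10480194) was nearly closed in B cells, with 1.25 ± 1.56 CPM, against 15.9 ± 14.5 in macrophages and 8.08 ± 11.2 in dendritic cells. B cells were above macrophages there in 3 of 21 mice. The peak at the second start (chr16:10487702-10488503, in B cells 62.5 ± 8.50 CPM) had the opposite order, with 29.3 ± 17.2 in macrophages and 16.2 ± 17.8 in dendritic cells, and B cells led in 21 of 21 and 17 of 17 mice. The peak at the third start (chr16:10489546-10489813) was at 15.5 ± 5.16 CPM in B cells, 7.95 ± 10.9 in macrophages and 8.14 ± 13.3 in dendritic cells, with spreads as large as the levels in the myeloid clusters.

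The remaining Ciita peaks lie in introns and exons. In macrophages an intronic peak (chr16:10482319-10482715) followed the first start, with 22.8 ± 21.1 CPM against 1.47 ± 1.68 in B cells. Dendritic cells did not share this, with 2.12 ± 4.97 CPM there and B cells above them in 9 of 17 mice. In the 3′ part of the gene B cells led at several peaks, the 2 tallest of which are given here. The peak at chr16:10515717-10516712 had 139 ± 18.7 CPM in B cells, 29.1% of the whole Ciita sum there, against 19.0 ± 19.0 in macrophages and 22.9 ± 30.6 in dendritic cells. The peak at chr16:10508513-10509345 had 65.9 ± 11.1 CPM against 7.60 ± 11.7 and 2.88 ± 6.05. At both, B cells were above both other clusters in every mouse that had the libraries. These 2 peaks also lie on the neighbouring gene Dexi as annotated, as 7 of the 16 do. Of the 16, 10 were highest in B cells. The peak differences were described over mice and not tested.

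Over all 54 peaks of the 10 members, 40 were highest in B cells, 4 in macrophages, 4 in dendritic cells and 6 in another cluster. They comprise 15 at a transcript start, 10 on an exon, 27 in an intron and 2 upstream of the gene. All 6 peaks of Cd74 and all 4 of H2-Aa and H2-Ab1 were highest in B cells. H2-DMb2 has 2 peaks, and they behaved differently. The one further upstream (chr17:34142634-34143638) had 104 CPM in B cells and 53.4 in macrophages, while the one that holds the X and Y boxes shown above (chr17:34144742-34145490) had 125 against 18.3. At the H2-Eb1 start (chr17:34305596-34306080), macrophages had 62.3 ± 46.5 CPM and dendritic cells 18.1 ± 20.1, whereas upstream of it (chr17:34304701-34305189) dendritic cells had 41.9 ± 24.2 and macrophages 30.7 ± 27.4.

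The main question of the study was what cold and CL do to the tissue, and in B cells H2-Aa was the one class II gene that passed the test. In edgeR's test across the 7 groups, 1 of 10 members was called, H2-Aa, where 2.16% of the 11485 genes tested were called. H2-Aa in day0RT had 244, 232 and 215 CPM. After cold it had 195, 198 and 180.2 at day 1, 163, 201 and 211 at day 3, and 147, 137 and 169 at day 7. After CL it had 150.3, 172 and 59.5 at day 1, 181, 239 and 195 at day 3, and 179.6, 189 and 188 at day 7. All mice of 5 of the 6 treated groups lay below all day0RT mice, and only day3CL overlapped them. The gap was narrow for day3C, whose highest value was 211 against 215 in day0RT. These separations all use the same day0RT mice and the values that gave the call, so they add no support to it. How many of all genes separate in this way was not counted. The lowest value, 59.5, came from the mouse with 66 B nuclei.

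**Figure D4:**
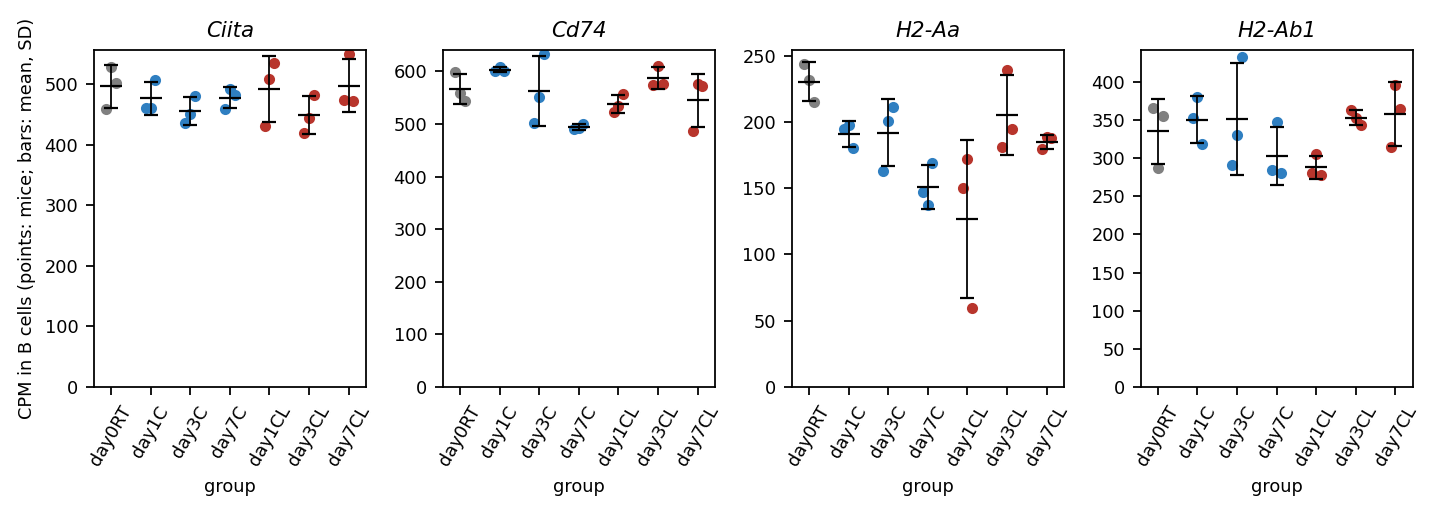
CPM in B cells of Ciita, Cd74, H2-Aa and H2-Ab1, 1 panel each, by group, with 1 point per mouse and bars for the group mean and SD (grey for day 0, blue for cold, red for CL). H2-Aa lies below its day0RT values in all groups but day3CL, and the other 3 panels show groups that overlap, except Cd74 at day1C and day7C.

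Averaged over the 3 days, H2-Aa fell with CL, by a log2 difference of -0.34 ± 0.09 (edgeR, adjusted p = 0.0296), in a comparison that called 1.31% of genes and no other member. With cold the difference was -0.34 ± 0.09 as well, but it did not pass (adjusted p = 0.0589), so 0 of 10 members were called by edgeR, beside 0.113% of genes, with 1 member and 9.30% of all genes at an unadjusted p under 0.05. Between CL and cold, H2-Aa differed by 0.00 ± 0.07, with an interval from -0.14 to 0.15. That comparison called 0 of 10 members and 0.0174% of genes, with 0 members and 9.93% of genes at an unadjusted p under 0.05. DESeq2 gave the same size of difference for CL (-0.34) without a call (adjusted p = 0.165), and called 0 members in all of these comparisons. The CL call was also lost when day0RT replicate 1, day0RT replicate 2, day1CL replicate 1 or day7CL replicate 1 was left out, with differences from -0.34 to -0.29, and the call across the 7 groups was lost without day0RT replicate 1 (adjusted p = 0.0694). Without the 3 mice with few T nuclei, an alternative chosen after seeing the data, the edgeR adjusted p for H2-Aa was 0.00550 across groups and 0.0282 with CL.

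The other 9 members differed from day 0 by a log2 value between -0.15 (H2-DMb1 with CL) and 0.06 (H2-DMa with cold), each with an SE of 0.07 to 0.12. Ciita, for instance, had 459, 529 and 502 CPM in day0RT, 459, 492 and 483 in day7C, and 474, 549.9 and 472 in day7CL. These ranges overlap, and the interval for Ciita with CL ran from -0.17 to 0.12. The further members, Cd74, H2-Ab1 and H2-DMb2, had unadjusted p-values under 0.05 across the 7 groups, as 14.4% of all genes did, but adjusted edgeR p-values of 0.322, 0.219 and 0.233. Cd74 was above its day0RT range of 544 to 599 CPM in all day1C mice (599.9 to 608) and below it in all day7C mice (489.5 to 500.5). How many of all genes separate in this way was not counted. Of the 40 pathway genes, 36 were tested in B cells and 0 were called in any of the 4 comparisons. Over all genes, 2.16% were called across groups, 0.113% with cold, 1.31% with CL and 0.0174% between CL and cold.

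At single peaks in B cells, 46 of the 54 were tested and edgeR called 0 across the 7 groups, beside 0.314% of the 21628 peaks tested. At an unadjusted p under 0.05 were 8 of the 46, against 8.88% of all peaks, and DESeq2 also called 0. The lowest p among the members belonged to an intronic peak of H2-Aa next to its start (chr17:34287064-34287372), with p = 3.4e-04 and an adjusted edgeR p = 0.0815. It had 48.0, 48.1 and 34.9 CPM in day0RT, 16.9, 16.2 and 19.8 in day1CL, 29.4, 33.2 and 31.8 in day3CL, and 20.0, 24.4 and 22.6 in day7CL. All CL mice lay below all day0RT mice, and how many of all peaks do so was not counted. The log2 difference with CL was -0.81 ± 0.19 (edgeR, adjusted p = 0.0384), in a comparison added after seeing the data that called 1 member peak and 0.0832% of all peaks. With cold it was -0.64 ± 0.17 (adjusted p = 0.181), where 0 member peaks and 0.0231% of all peaks were called. The CL call at this peak was lost in 9 of the 21 fits that left out 1 mouse. The H2-Aa peak at the start itself, which holds its X and Y boxes, differed by -0.17 ± 0.11 with CL and -0.15 ± 0.10 with cold, and neither passed.

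In macrophages, dendritic cells and adipocytes no member passed the test. In macrophages, 7 members were tested and edgeR called 0 of them across the 7 groups, with cold, with CL and between CL and cold, beside 0% of the 3549 genes in each of the 4. H2-Aa was the 1 member at an unadjusted p under 0.05 across groups (p = 0.0165, adjusted edgeR p = 0.728), against 5.30% of all genes. Its CPM was 124, 80.3 and 172 in day0RT, 182, 95.6 and 204 in day1C, and 101, 63.2 and 42.5 in day1CL, so the groups overlap. The difference with CL was -0.46 ± 0.24 on the log2 scale, and its interval, -0.93 to 0.02, includes the size seen in B cells. For Ciita it was -0.32 ± 0.21. DESeq2 called 0 members in macrophages as well.

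Dendritic cells allowed only 4 members to be tested (Ciita, Cd74, H2-Eb1 and H2-DMa). By edgeR, 0 were called across groups (beside 0.0567% of the 1763 genes), and 0 with cold, with CL and between CL and cold (beside 0% of genes in each). None of the 4 had an unadjusted p under 0.05 in any of these comparisons, where 4.76% to 6.64% of all genes did, and DESeq2 called 0. Ciita had 133, 123 and 117 CPM in day0RT, 148, 226 and 161 in day1C, and 67.8, 103 and 83.3 in day7CL, from 79, 23 and 13 entries per group. The difference with CL was -0.10 ± 0.25 on the log2 scale, with an interval from -0.60 to 0.40. This interval leaves room for a change of either sign. What size of change between groups these nuclei could detect was not simulated.

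**Figure D5:**
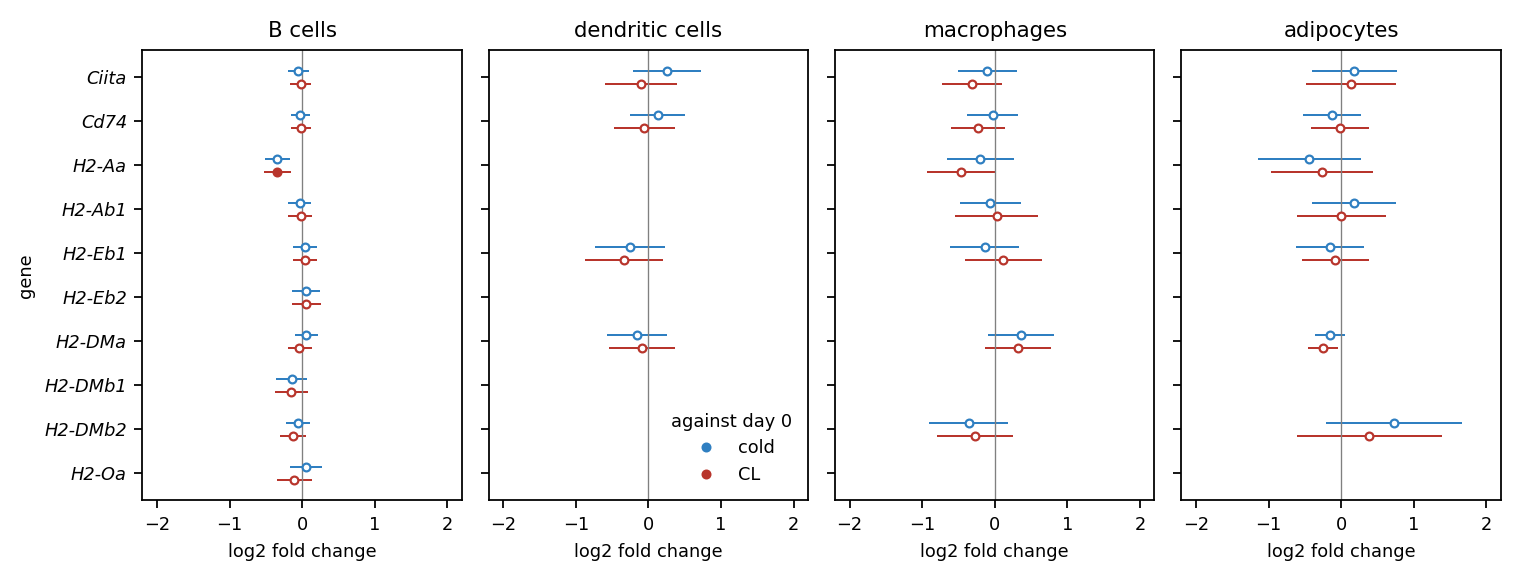
Log2 difference from day 0 of each member tested, with cold (blue) and with CL (red), in B cells, dendritic cells, macrophages and adipocytes, with lines for the 95% interval and a filled point where edgeR called the difference. H2-Aa in B cells is the member whose interval stays below 0 with both treatments, and the intervals widen from B cells to the other 3 panels.

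In adipocytes (white and beige clusters summed), where day 0 and the treated groups differ most across the genome, edgeR called 0 of 7 members across groups beside 13.7% of the 14408 genes, 0 with cold beside 2.33%, 0 with CL beside 6.41% and 0 between CL and cold beside 2.73%. Across groups, 4 members and 28.2% of all genes had an unadjusted p under 0.05. H2-DMa came closest (adjusted edgeR p = 0.0503). It had 173, 134 and 129.7 CPM in day0RT and 110.2, 101 and 110.5 in day7C, a group that lies wholly below day 0. So do day1CL (96.3, 119 and 118) and day3CL (109.5, 120.5 and 123). These separations share the same day0RT mice, and how many of all genes separate in this way was not counted. Its difference with CL was -0.25 ± 0.11 on the log2 scale (adjusted edgeR p = 0.161). Of its 7 peaks, the 3 that also lie on Brd2 had 16.6, 39.7 and 32.5 CPM in white adipocytes, where the gene had 128. The part of Brd2 in these differences was not tested. The other 6 members rest on the low values described above, and Ciita with CL differed by 0.13 ± 0.31. DESeq2 called 0 members in these comparisons too.

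Of the 40 pathway genes, 38 were tested in adipocytes. By edgeR, 8 passed across groups (beside 13.7% of all genes) and 3 with cold (1 rose, 2 fell, beside 2.33%). With CL 6 passed (1 rose, 5 fell, beside 6.41%), and 1 did between CL and cold (beside 2.73%). March1, a ubiquitin ligase that removes class II from the surface, rose with both treatments, by 0.74 ± 0.21 with cold (adjusted edgeR p = 0.0391) and 0.78 ± 0.21 with CL (adjusted edgeR p = 0.0149). The related March8 fell, with log2 differences of -0.65 ± 0.14 and -0.69 ± 0.14. With CL, Irf4 (-0.62 ± 0.16), the peptide transporter Tap1 (-0.58 ± 0.17) and Irf1 (-0.55 ± 0.16) fell as well, and Irf4 was the 1 listed gene that differed between CL and cold (-0.41 ± 0.11). These calls were fragile. DESeq2 called 1, 1, 2 and 0 of the 38 in the 4 comparisons, and without the 3 mice with few T nuclei edgeR called 5, 1, 3 and 0. With promoter peaks only, none passed with cold, with CL or between them, and March8 stood at 0.27 with cold and 0.31 with CL (adjusted edgeR p = 0.771 and 0.620). Each call with cold or CL was also lost when 1 or another mouse was left out, a day0RT mouse for every gene: that of March8 without day0RT replicate 3 (-0.57 and -0.61), and with CL those of March1 without day0RT replicate 2 or 3 (0.62 to 0.66), Irf4 without replicate 1 or 3 (-0.60 to -0.42), Tap1 without day0RT replicate 1 or 2, day1CL replicate 3 or day7CL replicate 1 (-0.71 to -0.46), and Irf1 without day0RT replicate 1 or 3, day1CL replicate 3 or day3CL replicate 2 (-0.65 to -0.46). With cold, that of March1 was lost without day0RT replicate 2 or 3, day1C replicate 2 or 3 or day3C replicate 1 (0.59 to 0.69). The Irf4 call between CL and cold was lost without day1C replicate 1, day1CL replicate 3, day3C replicate 1 or day7C replicate 3 (-0.76 to -0.31). Among the 8 B cell markers, 6 were tested in adipocytes and 1, Pax5, which is also on the pathway list, fell with each treatment. Of the 6 adipocyte markers, 1 rose and 4 fell with CL. Over all genes, 2.33% were called with cold and 6.41% with CL. The part of either in these values was not tested.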

How the data were processed

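Nuclei of iWAT from 21 mice were profiled by single-nucleus ATAC-seq with combinatorial indexing. Per the labels and methods, the authors aligned reads to mm10 with Bowtie2, filtered them with SAMtools, called peaks with MACS2, removed doublets and clustered nuclei with Signac. They deposited a matrix of peak counts for 189598 peaks by 32552 nuclei, with the mouse, group and cluster of each nucleus. Its entries are 1 (65588856 entries) or a stored 0 (145), so a count says how many nuclei had any read in a peak, and strong peaks are compressed. The labels name 4 sequencing lanes, not mice, so groups and mice were taken from that deposited table. Which lane a nucleus came from is not given in the sources used here.

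Peaks were assigned to protein-coding genes of the mm10 annotation (gene body plus 2000 bases upstream), and a peak on several genes counted for each. Counts were summed per mouse and cluster, for libraries of at least 10 nuclei. Tests were edgeR 4.0.16 (R 4.3.3) quasi-likelihood fits over all genes that passed filterByExpr, with TMM scaling, a prior count of 2 and Benjamini-Hochberg adjustment at 0.05. SE is the absolute log2 difference divided by the square root of F, and intervals are at 95%. Cold and CL are means over 3 days each, and they share the day 0 mice. Alternatives were DESeq2 1.42.0, no filter, promoter peaks only, peaks of 1 gene only, other nuclei minimums, a replicate block, no mouse block, leaving out each mouse and, added after seeing the data, leaving out the 3 mice with few T nuclei, the single-peak contrasts with cold and CL, and the same settings for the pathway genes. Tested on simulated data for CL against day 0 in B cells (11485 genes), the fit recovered 91% of genes changed by a fold of 2 and 48% of those changed by 1.5. For dendritic cells against macrophages (3399 genes) these were 79% and 54%. Smaller changes, such as the log2 difference of -0.34 for H2-Aa in B cells, were not simulated. The simulated libraries had no effect shared by the libraries of a mouse. For dendritic cells against macrophages, simulated levels were pooled over all 3 clusters, in which B cell libraries are the largest. Genes high in B cells were thus simulated above their myeloid levels, and recovery for them may be lower than stated. All 10 members are named whether called or not. Of the pathway list, at most 5 genes per comparison are named, those past the threshold with the largest difference, and H2-Ob and Pax5 beyond them were picked after their values were seen. Likeness to Ciita is Pearson's r of log2(CPM + 1) over 12 cluster means, for genes that reach 20 CPM in a cluster. Members, lists and motifs were chosen with earlier results of these data known. Ifi30 and Myf5 were listed but not analysed here.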

Additional observations from a re-analysis of the deposited data

Results flagged for a closer look

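For each of 2 members, among groups with all 3 mice, the mice of one day all lay above the day 0 mice while those of another day under the same treatment all lay below them. How many of all genes do so was not counted, so the 2 have no background share beside them. In dendritic cells, Ciita and H2-Eb2 did so too with CL, but from 2 day1CL mice and 1 day3CL mouse. These differences between days were not tested on their own. Cd74 in B cells had a mean of 603 CPM in day1C and 494 in day7C, a difference of 109 CPM, with day0RT at 567. H2-Ab1 in macrophages had 293, 244 and 192 CPM in day3CL and 84.1, 105 and 112 in day1CL, a difference of 142 CPM between the means, from 36 and 39 entries. Neither gene passed the test across groups in that cell type.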

How the results depend on the processing

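Under the alternatives run, 1289 values were recomputed and 1214 kept their direction and their side of the threshold or, for counts, stayed within 1.5 times. None of these reversed. Of the pathway genes called, 2 turned sign under a setting: March8 in adipocytes with promoter peaks only (-0.65 to 0.27 with cold and -0.69 to 0.31 with CL) and Irf8 in B cells against macrophages with no filter (-0.21 to 0.02). In B cells, across the 7 groups DESeq2 called 0 members in place of 1, and leaving out 1 mouse at a time gave 0 to 1. With cold, 1 member (H2-Aa) was called in place of 0 with no filter, with only peaks of 1 gene and with the replicate block, and leaving out 1 mouse gave 0 to 1. With CL, 0 were called in place of 1 by DESeq2 and with promoter peaks only, and leaving out 1 mouse gave 0 to 1. At single peaks with CL, 0 were called in place of 1 by DESeq2 and with no filter, and leaving out 1 mouse gave 0 to 1. In adipocytes across groups, 2 members were called in place of 0 with no filter, 1 with promoter peaks only and 1 with the replicate block, and leaving out 1 mouse gave 0 to 2. Between clusters, promoter peaks only gave 2 calls in place of 5 for dendritic cells against macrophages and 4 in place of 8 for each of the comparisons with B cells, with fewer members tested, and with no filter all 10 members were higher in B cells than in either. Where not stated, the cause was not tested.

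Counts over all genes moved more than those of the members. In B cells the calls across groups went from 248 to 44 with DESeq2 and 30 with promoter peaks only, those with CL from 151 to 18 under either, and those with cold from 13 to 0, 4 and, with the replicate block, 21. In adipocytes the calls across groups went from 1969 to 437 with DESeq2, 473 with promoter peaks only and 1134 without the mice with few T nuclei, those with cold from 336 to 141 and 41, those with CL from 924 to 334, 130 and 386, and those between CL and cold from 394 to 48, 47 and 10. Between clusters, no filter raised the calls from 1330 to 2826, from 2338 to 9359 and from 2347 to 8735, promoter peaks only lowered them to 80, 252 and 262, and libraries of at least 30 nuclei gave 4140 and 3586 for the comparisons with B cells. At single peaks in B cells the calls across groups went from 68 to 11 with DESeq2 and 6 with no filter, those with cold from 5 to 0 and those with CL from 18 to 0 under both. In dendritic cells and macrophages, and in B cells between CL and cold, the calls stayed between 0 and 3.

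Mice with the same replicate number showed no shared deviation in B cells. Over 63 pairs of same-numbered B cell libraries the correlation of deviations from the group means ran from -0.10 to 0.09, and 7 of 21 mice correlated best with their own number. The paper's reporting summary mentions 3 batches that were run independently. Whether the replicate number names the batch is not given, and these correlations cannot decide it. The replicate block moved member counts only where given above. Dendritic cells with at least 30 nuclei, and without day3CL replicate 3 for the comparisons that need that group, could not be fitted. Depth limits dendritic cells most, with 10 to 154 nuclei per mouse and 4 members tested.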
